A study of Mus musculus with 10 samples.

Results

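The 10 genes described here are the VEGF and angiopoietin ligands and receptors of the mouse heart: the ligands Vegfa, Vegfb, Angpt1 and Angpt2, the receptor kinases Flt1, Kdr, Flt4, Tek and Tie1, and the co-receptor Nrp1. They were taken by gene symbol from a deposited count table of 31655 Ensembl gene IDs, and all 10 were found and tested. Transcripts were measured by RNA sequencing of cardiac tissue in 2 groups of 5 libraries. In the baicalin plus LPS group (Ba+LPS), mice were gavaged with 100 mg/kg of baicalin, a plant flavone, for 14 days before a single intraperitoneal dose of 10 mg/kg lipopolysaccharide (LPS), a bacterial outer-membrane component that triggers systemic inflammation. In the LPS group, mice were gavaged with distilled water and, per the design text, received the same LPS dose. Tissue was taken 72 hours after LPS. Neither the labels nor the design text name a strain, age or sex. A blank group named in the design text was not analysed here, so no comparison below is with hearts that had no LPS. The design text gives 8 mice per group without saying which mouse each library came from. The p-values therefore speak only of the spread among the libraries, part of which may be technical.

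VEGF-A binds the receptor kinases FLT1 (VEGFR1) and KDR (VEGFR2) on endothelial cells, and KDR carries most of its signal for endothelial growth, survival and permeability. FLT1 binds VEGF-A tightly but signals weakly, and a soluble form of it traps the ligand. ANGPT1, made mainly by cells around the vessel, activates the receptor TEK (TIE2) and stabilises the vessel wall, while ANGPT2, released by endothelial cells, can block that activation in inflammation. TIE1 binds no ligand tightly and modulates TEK. In the heart, cardiomyocytes are a main source of VEGF-A and VEGF-B for the dense capillary bed, and the ANGPT2 to ANGPT1 balance is a known measure of vascular leak in sepsis.

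Library totals ran from 39.4 to 59.6 M counts in Ba+LPS and from 43.1 to 75.7 M in LPS, and mitochondrially encoded transcripts took 36.5% to 44.1% of them in Ba+LPS and 30.2% to 43.3% in LPS. LPS 1, LPS 2 and LPS 3 differed from all others in acute-phase transcripts. The acute-phase gene Lcn2 (lipocalin 2) had 135 to 795 CPM (counts-per-million values scaled by TMM) in the Ba+LPS libraries and 5.28 to 6.41 CPM in LPS 1, 2 and 3, with 1012 CPM in LPS 4 and 406 CPM in LPS 5. Summed CPM of 8 cardiomyocyte markers was 63100 to 71730 in LPS 1, 2 and 3 and 35190 to 50710 in the other 7 libraries, and that of 8 pericyte markers 1171 to 1246 and 503.7 to 914.6. Summed CPM of neutrophil markers was 1.95 to 4.95 in LPS 1, 2 and 3 and 32.05 to 165 in the other 7, that of macrophage markers 126.2 to 150.7 and 165.9 to 552.5, and that of platelet markers 5.53 to 7.92 and 10.88 to 23.98. The labels place LPS 1, 2 and 3 in the LPS group, where they were kept, but whether these hearts had responded to LPS is in doubt, and libraries without LPS were not analysed here. Each difference below that rests on them is also given without them. The labelled tissue, cardiac, fitted its markers, since all 8 cardiomyocyte markers were expressed in every library.

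On GRCm38 (mm10), Flt1 (ENSMUSG00000029648) lies on chromosome 5 from 147561604 to 147726011 and Kdr (ENSMUSG00000062960) on chromosome 5 from 75932827 to 75978458. Flt4 (ENSMUSG00000020357) lies on chromosome 11 from 49609263 to 49652739, Tek (ENSMUSG00000006386) on chromosome 4 from 94739289 to 94874976, and Tie1 (ENSMUSG00000033191) on chromosome 4 from 118471191 to 118490061. Angpt1 (ENSMUSG00000022309) lies on chromosome 15 from 42424723 to 42676977 and Angpt2 (ENSMUSG00000031465) on chromosome 8 from 18690263 to 18741562. Vegfa (ENSMUSG00000023951) lies on chromosome 17 from 46016993 to 46032369, Vegfb (ENSMUSG00000024962) on chromosome 19 from 6982473 to 6987651, and Nrp1 (ENSMUSG00000025810) on chromosome 8 from 128358604 to 128503363. Values are per whole gene, so splice forms such as soluble Flt1 or the isoforms of Vegfa were not separated. Angpt1 shares 737 of its 5205 exon bases, or 14.2%, with the antisense gene Gm17473, and use of strand in the counting is not given, but Gm17473 averaged 0.669 CPM before TMM scaling. Angpt2 lies inside Mcph1 on the opposite strand and shares 0 exon bases with it, and Mcph1 averaged 5.32 CPM.

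The promoters of the VEGF receptors and Tie1 are printed because these receptors share endothelial expression, and because the counts below put Kdr, Flt4 and Tie1 in a like library profile and Flt1 in another. ETS-family factors, which bind around a GGAA core, drive much of endothelial transcription. Each line holds the 250 bases before the RefSeq start on GRCm38.p6, read 5′ to 3′ on the gene's strand, with every GGAA or its reverse complement TTCC in capitals. The windows are chr5:75978456-75978705 (minus) for Kdr, chr11:49609429-49609678 (plus) for Flt4, chr4:118489850-118490099 (minus) for Tie1 and chr5:147726012-147726261 (minus) for Flt1. The Flt4 window lies wholly, and the Tie1 window mostly, inside the gene span given above, which begins before the RefSeq start.
Kdr: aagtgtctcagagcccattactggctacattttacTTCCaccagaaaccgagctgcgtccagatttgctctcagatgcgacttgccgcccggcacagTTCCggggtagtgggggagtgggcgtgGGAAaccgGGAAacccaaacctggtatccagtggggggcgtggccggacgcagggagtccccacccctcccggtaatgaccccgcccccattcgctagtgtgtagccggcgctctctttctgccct
Flt4: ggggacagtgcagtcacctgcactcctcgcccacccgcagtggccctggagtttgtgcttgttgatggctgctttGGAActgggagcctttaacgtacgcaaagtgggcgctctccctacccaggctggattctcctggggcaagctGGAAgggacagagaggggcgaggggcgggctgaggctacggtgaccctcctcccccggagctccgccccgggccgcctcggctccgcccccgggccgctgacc
Tie1: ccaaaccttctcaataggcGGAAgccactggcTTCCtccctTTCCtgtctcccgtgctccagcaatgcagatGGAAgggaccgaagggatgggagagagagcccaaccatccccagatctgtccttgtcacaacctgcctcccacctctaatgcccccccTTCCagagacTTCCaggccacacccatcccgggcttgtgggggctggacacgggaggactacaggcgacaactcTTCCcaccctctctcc
Flt1: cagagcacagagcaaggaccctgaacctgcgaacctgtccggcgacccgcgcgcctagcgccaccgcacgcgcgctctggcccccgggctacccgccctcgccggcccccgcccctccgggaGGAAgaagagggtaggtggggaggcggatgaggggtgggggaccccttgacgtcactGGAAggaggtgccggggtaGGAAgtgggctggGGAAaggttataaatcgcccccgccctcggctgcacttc

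The core occurred 4 times in the Kdr window, 2 times in Flt4, 7 times in Tie1, 4 times in Flt1 and 2 times in Tek, but 93.4% of the 32851 RefSeq mouse promoter windows of this length hold it on one strand or the other. The longer ETS form CCGGAA, which contains GGAA, was in 12% of all windows and, among the genes of the family with a window, only in Kdr, with 1 copy beginning 153 bases before the start. The SP1 box GGGCGG, in 32.7% of windows, was in Kdr, Flt1, Flt4, Nrp1, Vegfa and Vegfb. The TATA box TATAAA, in 12.4% of windows, was in Flt1 alone, 31 bases before the start. The hypoxia response core ACGTG, in 16.6% of windows, was found only before the second of the 2 RefSeq starts of Vegfa, and the GATA-factor motif, spelled AGATAA and held by 9.99% of windows, only before the other. The window with the hypoxia core, chr17:46025164-46025413, lies wholly inside the Vegfa gene span given above and not upstream of the gene. Angpt1 and Angpt2 have no entry in the promoter table. A match is a string of letters and not a bound site.

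Across all 10 libraries the ligands of the VEGF side were the most abundant members per length. On the FPKM scale, Vegfb had 55.3 ± 9.55 in Ba+LPS and 71.1 ± 9.97 in LPS (SD, n = 5 each), and Vegfa had 38.4 ± 8.13 in Ba+LPS and 52.3 ± 18.1 in LPS. Vegfb was above Vegfa in 10 of 10 libraries, and Vegfa above the next gene in 10 of 10. The middle of the order was not resolved. Kdr, Tie1, Flt1, Tek and Angpt1 averaged 12.8, 12.2, 9.84, 9.58 and 9.21 FPKM over the 10 libraries, and each of them was above its lower neighbour in only 5 to 7 of 10 libraries. Nrp1 followed with 6.53 FPKM, below Angpt1 in 5 of 10 libraries. Flt4, the receptor of lymphatic VEGF-C, and Angpt2 were lowest at 2.32 and 0.999 FPKM, each below its upper neighbour in 10 of 10 libraries. Angpt1 changed its place most between groups, with a level of 13.9 ± 8.04 FPKM in Ba+LPS and 4.54 ± 2.28 FPKM in LPS.

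With all 10 libraries, 8 of the 10 genes had lower values in Ba+LPS than in LPS hearts, Tek by only -0.0018 on the log2 scale. Angpt1 was higher by a log2 fold change of 1.50, and Nrp1 by 0.14. The median log2 fold change of the 10 was -0.47, against -0.0038 over the 16850 genes tested, of which 8331 were positive and 8519 negative. Without LPS 1, 2 and 3, Tek had 0.31, Vegfa 0.26, Flt1 -0.09 and Vegfb -0.11. In that fit Kdr had -0.44, Flt4 -0.41, Tie1 -0.60, Angpt2 -0.89, Nrp1 0.17 and Angpt1 1.30. The count of 8 and the median of -0.47 therefore rest in part on those libraries. In the main test, the quasi-likelihood F test of edgeR with p adjusted over all genes tested, 0 of the 10 passed 0.05, and 0 of the 16850 genes (0%) did. At an unadjusted p under 0.05 there were 5 of the 10, namely Angpt1 higher and Flt1, Kdr, Tie1 and Vegfb lower, against 11.1% of all genes. DESeq2 was run on the same genes, of which its own filters left 14868. It called Tie1 and Angpt1, against 1.58% of all 16850 genes. The limma-voom fit with sample quality weights called Flt1, Kdr, Tie1, Angpt1, Vegfa and Vegfb, against 17.6%. It put Flt1 at a log2 fold change of -1.07 and Vegfa at -0.91. That fit also called the acute-phase genes Lcn2 (adjusted p = 0.0047) and Saa3 (adjusted p = 0.0035), both low in LPS 1, 2 and 3. Their edgeR adjusted p were 0.954 and 0.996. The part of LPS 1, 2 and 3 in its calls was not tested. The groups did not overlap in Tie1 alone, against 2.46% of all genes. These are bulk tissue values, in which fewer cells of a type and less RNA per cell cannot be told apart.

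**Figure D1:**
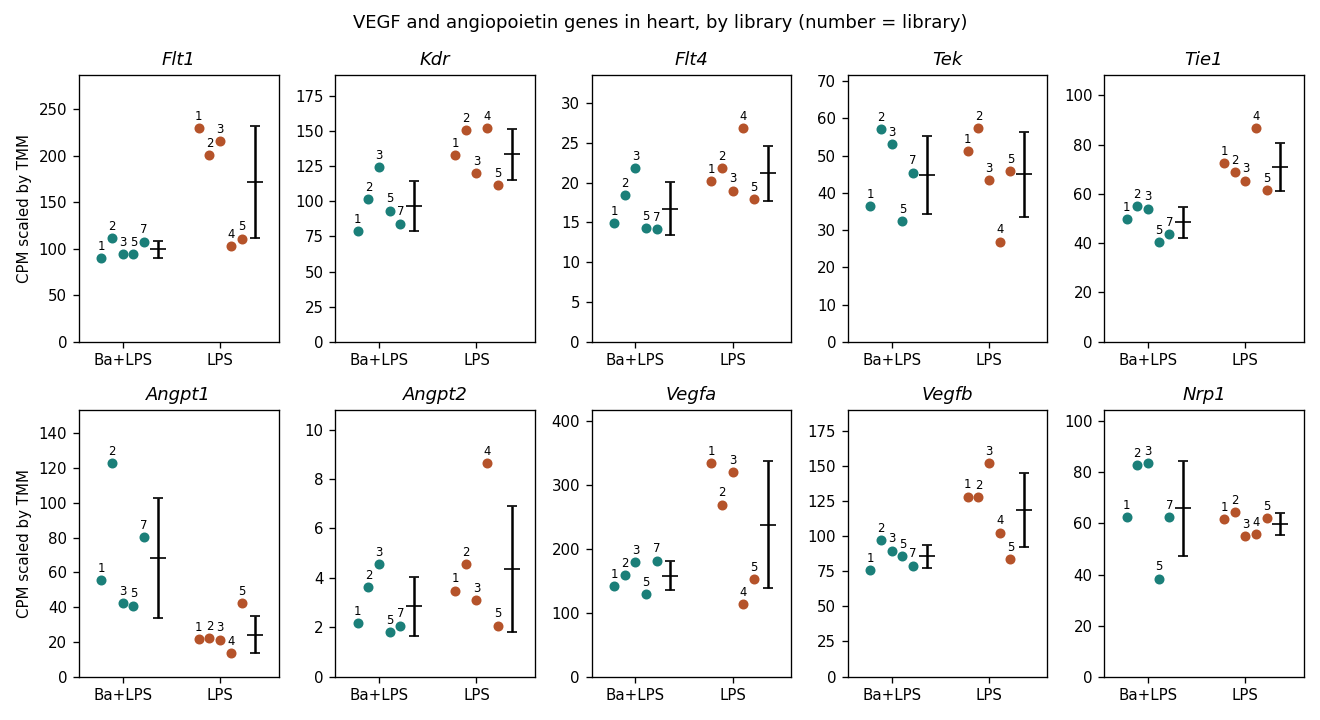
Level of each gene, in CPM scaled by TMM, in every library of the Ba+LPS group (left in each panel) and the LPS group (right). Points are numbered by library, and the bar is the mean ± SD of 5 libraries. Tie1 is the only gene without overlap between the groups, and LPS libraries 1, 2 and 3 are the highest 3 for Flt1, Vegfa and Vegfb.

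Vegfa, the main ligand of FLT1 and KDR, had 142, 159, 179, 129 and 181 CPM in Ba+LPS libraries 1, 2, 3, 5 and 7 and 334, 269, 320, 113 and 153 CPM in LPS libraries 1 to 5. The 3 high LPS libraries were numbers 1, 2 and 3, while LPS 4 and 5 lay within or below the Ba+LPS range. The means were 158 ± 23.0 CPM in Ba+LPS and 238 ± 99.9 CPM in LPS, and the log2 fold change of -0.59 ± 0.28 (SE) did not pass (edgeR adjusted p = 0.460). Without LPS libraries 1, 2 and 3 it was 0.26 ± 0.19, the opposite sign. Vegfb, which binds FLT1 and is tied to fatty acid handling and coronary vessels in the heart, had 76.0, 97.3, 89.8, 86.0 and 79.2 CPM in Ba+LPS and 128, 128, 152, 103 and 83.8 CPM in LPS. All Ba+LPS libraries were below 4 of the 5 LPS libraries, and LPS 5 fell among them. The log2 fold change of Vegfb was -0.47 ± 0.15 (edgeR adjusted p = 0.317), and -0.11 ± 0.15 without LPS 1, 2 and 3.

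Flt1 showed the same split among the LPS libraries. It had 90.0, 111, 94.5, 93.9 and 107 CPM in Ba+LPS and 230, 200, 216, 103 and 111 CPM in LPS. The Ba+LPS values varied little, with a coefficient of variation of 9.30%, against 35.2% in LPS, where libraries 1, 2 and 3 were far above the rest. The means of 99.4 ± 9.24 CPM in Ba+LPS and 172 ± 60.4 CPM in LPS gave a log2 fold change of -0.79 ± 0.23 (edgeR adjusted p = 0.299; DESeq2 adjusted p = 0.0523), which was -0.09 ± 0.14 without LPS 1, 2 and 3. Those libraries were the 3 highest for Flt1, Vegfa and Vegfb, as they were for 1609 of the 16850 genes tested (9.55%). In the same libraries acute-phase transcripts and the neutrophil, macrophage and platelet marker sums were lowest and the cardiomyocyte and pericyte marker sums highest, and the part of these in the values of Flt1, Vegfa and Vegfb was not tested.

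Kdr, the main signalling receptor, was lower in Ba+LPS without that split. It had 78.6, 101, 124, 93.3 and 84.2 CPM in Ba+LPS and 133, 151, 120, 152 and 111 CPM in LPS. Ba+LPS library 3 was the only one of its group above an LPS library. The means were 96.3 ± 17.8 CPM in Ba+LPS and 133 ± 18.1 CPM in LPS, with a log2 fold change of -0.47 ± 0.14 (edgeR adjusted p = 0.301), and -0.44 ± 0.20 without LPS 1, 2 and 3. Flt4 had 14.9, 18.4, 21.8, 14.3 and 14.2 CPM in Ba+LPS and 20.2, 21.8, 19.0, 26.9 and 17.9 CPM in LPS. Ba+LPS libraries 1, 5 and 7 were below every LPS library, and libraries 2 and 3 were not. Its log2 fold change was -0.34 ± 0.15 (edgeR adjusted p = 0.449). Nrp1, a co-receptor for VEGF-A and semaphorins, had 62.4, 83.0, 83.7, 38.4 and 62.4 CPM in Ba+LPS and 61.8, 64.5, 54.9, 55.7 and 62.1 CPM in LPS. The Ba+LPS values of Nrp1 lay on both sides of the narrow LPS range, with means of 66.0 ± 18.6 CPM in Ba+LPS and 59.8 ± 4.23 CPM in LPS and a log2 fold change of 0.14 ± 0.18 (edgeR adjusted p = 0.807).

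Angpt1 had the widest difference of the family. It had 55.3, 123, 42.3, 40.9 and 80.4 CPM in Ba+LPS and 21.4, 22.1, 21.3, 13.5 and 42.1 CPM in LPS. In Ba+LPS 4 of 5 libraries were above every LPS library, and library 5 lay just under LPS library 5. The means were 68.3 ± 34.4 CPM in Ba+LPS and 24.1 ± 10.7 CPM in LPS, with a log2 fold change of 1.50 ± 0.36, at an unadjusted p of 0.00152 and an edgeR adjusted p of 0.259. DESeq2 gave an adjusted p of 0.00623. Leaving out 1 library at a time gave log2 fold changes of 1.18 to 1.80, and leaving out LPS 1, 2 and 3 gave 1.30 ± 0.55. Among markers of cells that can make Angpt1, those of pericytes and fibroblasts did not share 1 pattern. All 8 pericyte markers had negative fold changes, with summed CPM of 503.7 to 914.6 in Ba+LPS and 608.0 to 1246 in LPS. That sum was 1171 to 1246 in LPS 1, 2 and 3. In LPS 4 and 5 it was 608.0 and 636.0, within the Ba+LPS range. All 8 fibroblast markers had positive ones, with summed CPM of 463.3 to 2009 in Ba+LPS and 506.4 to 756.8 in LPS. The fibroblast sum was 2009 in Ba+LPS library 3, where Angpt1 was 42.3 CPM, and 1337 in library 2, where Angpt1 was highest at 123 CPM. Summed CPM of lymphatic endothelial, endocardial, epicardial and macrophage markers was also highest in Ba+LPS library 2, at 177.1, 98.75, 48.13 and 552.5. Sums of the endothelial panel and of pericyte, smooth muscle and cardiomyocyte markers were highest in other libraries. The part of any cell type in the Angpt1 difference was not tested.

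Angpt2 was the least abundant member, with 2.17, 3.62, 4.54, 1.81 and 2.06 CPM in Ba+LPS and 3.48, 4.54, 3.08, 8.65 and 2.06 CPM in LPS. The groups overlapped, and LPS library 4, which had the highest Lcn2, was highest for Angpt2. The log2 fold change of -0.61 ± 0.39 did not pass (edgeR adjusted p = 0.588), and it was -0.21 ± 0.32 without LPS library 4. The log2 ratio of Angpt2 to Angpt1 within a library was -4.67, -5.09, -3.22, -4.50 and -5.28 in Ba+LPS and -2.62, -2.28, -2.79, -0.64 and -4.35 in LPS. In Ba+LPS 4 of 5 libraries were below every LPS library, and library 3 was above LPS library 5. The means of -4.55 ± 0.81 in Ba+LPS and -2.54 ± 1.33 in LPS (SD, n = 5 each) differed by -2.01 in a two-sided exact permutation test (p = 0.0159, where the smallest possible is 0.00794). Without LPS libraries 1, 2 and 3 the difference was -2.06 and did not pass (exact p = 0.190, in a design of 5 against 2 that cannot go below 0.0952). The 2 LPS libraries left were far apart, at -0.64 in LPS 4 and -4.35 in LPS 5, the second of them within the Ba+LPS range. The ratio is of transcripts in heart tissue, and the tables used here hold no measure of the proteins or of vascular leak.

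**Figure D2:**
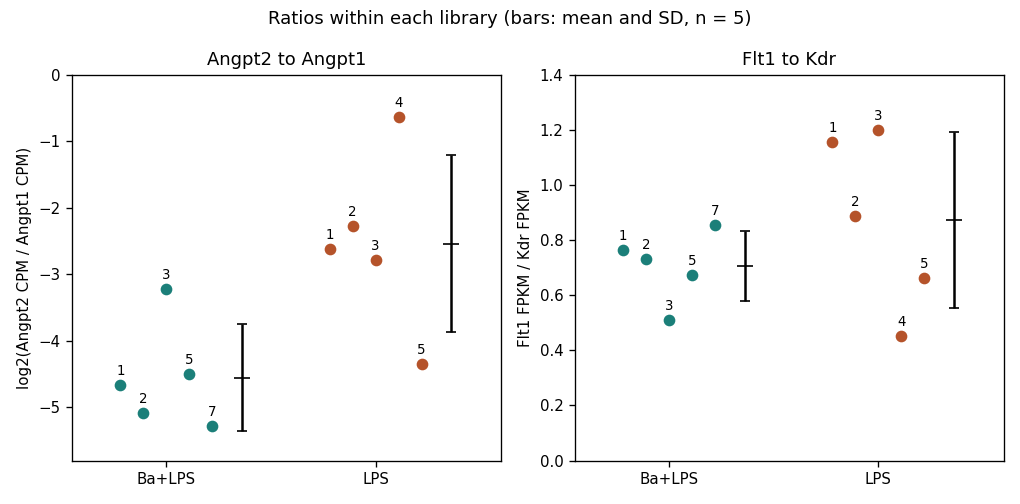
Ratio of Angpt2 to Angpt1 on the log2 scale (left panel) and of Flt1 to Kdr on the FPKM scale (right panel) in each library, Ba+LPS left of LPS, with the mean ± SD of 5 libraries. The Angpt2 to Angpt1 ratio averages -4.55 in Ba+LPS and -2.54 in LPS, and the 3 highest Flt1 to Kdr ratios are those of LPS libraries 1, 2 and 3.

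The receptor Tek, which both angiopoietins bind, did not follow its ligands. It had 36.4, 57.0, 53.1, 32.4 and 45.4 CPM in Ba+LPS and 51.2, 57.4, 43.4, 26.9 and 45.8 CPM in LPS. The groups covered nearly the same range, and both means were 44.9 CPM, with an SD of 10.5 in Ba+LPS and 11.4 in LPS. The log2 fold change was -0.0018 ± 0.21 (edgeR adjusted p = 0.998), and its sign changed with the scaling. Tie1, the partner of Tek, had 49.7, 54.9, 54.0, 40.4 and 43.7 CPM in Ba+LPS and 72.6, 68.9, 65.4, 86.7 and 61.6 CPM in LPS. Every Ba+LPS library was below every LPS library. The means were 48.5 ± 6.36 CPM in Ba+LPS and 71.0 ± 9.68 CPM in LPS, with a log2 fold change of -0.55 ± 0.12 (unadjusted p = 0.000946, edgeR adjusted p = 0.248, DESeq2 adjusted p = 0.0115), and -0.60 ± 0.18 without LPS 1, 2 and 3. With library totals in place of TMM the groups of Tie1 overlapped, with a highest Ba+LPS value of 62.7 CPM and a lowest LPS value of 57.0 CPM.

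Other endothelial transcripts were compared through a panel of 16 genes that holds none of the family, and all 16 were detected in every library. Fold changes were negative for 11 and positive for 5 of them (median -0.23). At an unadjusted p under 0.05, 5 were lower, against 991 lower of the 16850 genes tested. The panel's mean log2 CPM was 5.41 ± 0.11 in Ba+LPS and 5.57 ± 0.30 in LPS, a difference of -0.16. By library, this mean was 5.294 to 5.557 in Ba+LPS and 5.288 to 5.443 in LPS 1, 2 and 3. In LPS 4 and 5 it was 6.03 and 5.703, above every Ba+LPS library. The difference of -0.16 therefore rests in part on LPS 1, 2 and 3. Summed CPM of the panel ran from 1249 to 1904 in Ba+LPS and from 1281 to 2224 in LPS, with LPS library 4 highest. Among panel genes, Robo4, an endothelial guidance receptor, had 31.9 ± 4.25 CPM in Ba+LPS and 49.6 ± 6.35 CPM in LPS without overlap (log2 fold change -0.64 ± 0.12, edgeR adjusted p = 0.201), while Pecam1 had 186 ± 36.8 CPM in Ba+LPS and 192 ± 38.3 CPM in LPS.

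When each library was scaled to this panel, the median log2 fold change over all genes moved to 0.15, and 0 of the 10 genes passed an edgeR adjusted p of 0.05, as did 0% of all genes. At an unadjusted p under 0.05 there were 3 of the 10, against 12% of all genes. Relative to the panel, Angpt1 was higher by 1.68 ± 0.39 (edgeR adjusted p = 0.232), Tie1 had -0.39 ± 0.16 (edgeR adjusted p = 0.360) and Flt1 -0.71 ± 0.32 (edgeR adjusted p = 0.403). With LPS libraries 1, 2 and 3 also left out, Tie1 had -0.13 ± 0.19 and Angpt1 1.70 ± 0.63 relative to the panel. The median over all genes had moved to 0.48 in that fit. With all 10 libraries, Kdr had -0.33 ± 0.18, Flt4 -0.18 ± 0.16, Vegfa -0.53 ± 0.36, Vegfb -0.37 ± 0.24 and Angpt2 -0.40 ± 0.33, each smaller than without scaling to the panel. Tek and Nrp1 had 0.10 ± 0.28 and 0.28 ± 0.23.

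**Figure D3:**
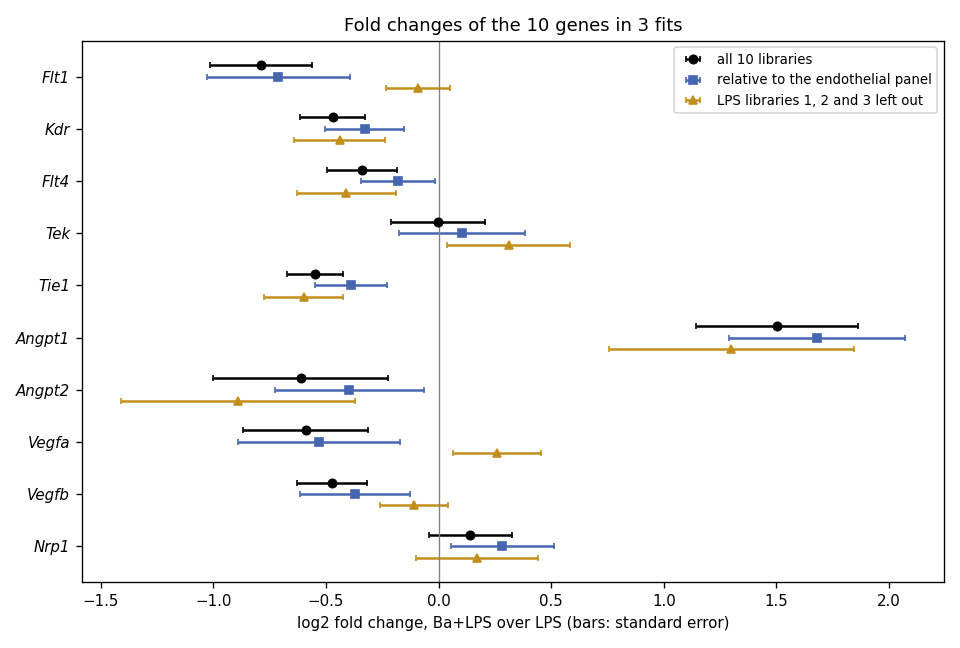
Log2 fold change of Ba+LPS over LPS for each gene, with its standard error, in the fit to all 10 libraries (black), relative to the endothelial panel (blue) and without LPS libraries 1, 2 and 3 (yellow). Angpt1 lies between 1.30 and 1.68 and Tie1 between -0.60 and -0.39 in the 3 fits, whereas Flt1 is at -0.79 with all libraries and -0.09 without LPS 1, 2 and 3, and Vegfa changes sign. With both changes together, which the plot does not show, Tie1 was at -0.13 ± 0.19 and the median of all genes at 0.48.

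Profiles over the libraries put the receptors in different company. Likeness was measured as the root-mean-square (RMS) difference of log2 CPM, centred on each gene's mean, over the 10 libraries, among 7640 genes with a mean of at least 10 CPM. This is a description, since genes share libraries and depth. For Kdr the closest of all genes was Flt4 at an RMS difference of 0.12, then Fgd5, a guanine nucleotide exchange factor of endothelial cells, at 0.13 and Pkd1 at 0.13. For Flt4 the closest were Osbpl5 (0.0756), Plekhg3 (0.0984) and Cdh5 (0.11), the VE-cadherin gene of endothelial junctions. For Tie1 they were Ndrg1 (0.10), Slc43a3 (0.12) and Plekhg3 (0.12), with Flt4 at rank 12 and Kdr at rank 32.

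Flt1 was close to none of these. Its closest genes were Hrc, a calcium-binding protein of the sarcoplasmic reticulum in heart muscle, at 0.11, Map4k2 at 0.14 and Foxo3 at 0.15. Vegfa was at rank 15 for Flt1 (0.20) and Vegfb at rank 83, while Kdr was at rank 1355 and Tie1 at rank 1449. The closest genes to Tek were Nr3c1, the glucocorticoid receptor, and Myo6, both at 0.11, and Tbc1d19 at 0.14, while Tie1 was at rank 4932 for Tek. As a ratio of FPKM, a quantity chosen after the values were seen, Flt1 to Kdr was 0.77, 0.73, 0.51, 0.67 and 0.85 in Ba+LPS and 1.16, 0.89, 1.20, 0.45 and 0.66 in LPS. It was highest in LPS libraries 1, 2 and 3 and lowest in LPS 4.

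**Figure D4:**
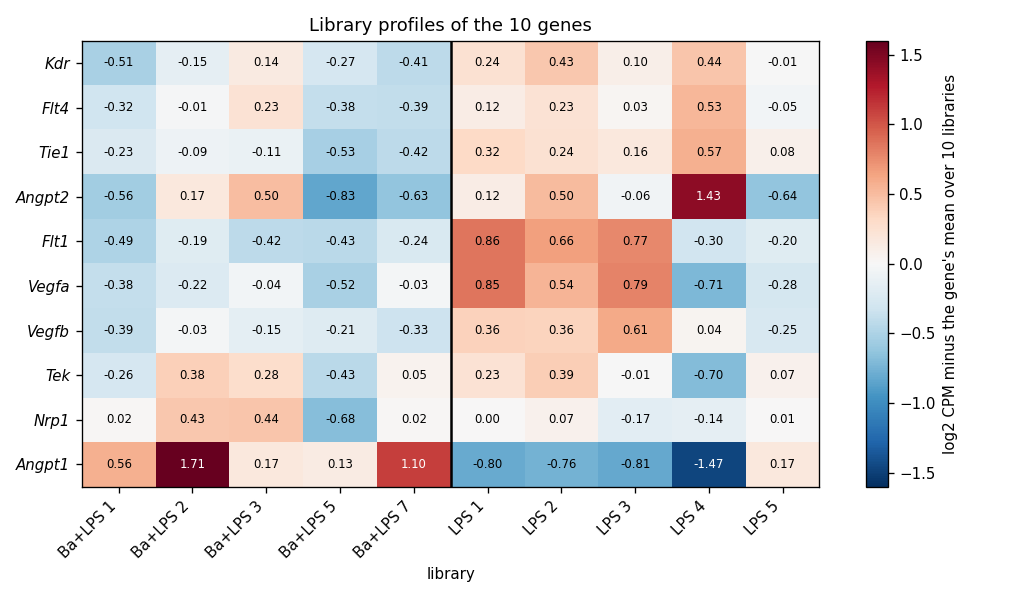
Log2 CPM of each gene minus its mean over the 10 libraries (colour and number), with Ba+LPS libraries left of the line and LPS libraries right of it. Kdr, Flt4, Tie1 and Angpt2 are highest in LPS library 4, Flt1 and Vegfa are highest in LPS library 1, and Angpt1 is highest in Ba+LPS library 2.

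Of the other VEGF and angiopoietin ligands and receptors, 11 of 12 were tested and Angpt4 was too low. Their fold changes were 6 positive and 5 negative with a median of 0.09, and 0 passed in edgeR. Vegfd, a ligand of FLT4 and lymphatic growth, was the 1 gene of the 11 at an unadjusted p under 0.05, against 11.1% of all genes. It had 4.63 ± 1.36 CPM in Ba+LPS and 3.03 ± 0.46 CPM in LPS, without overlap (0.61 ± 0.20, edgeR adjusted p = 0.326). Without Ba+LPS library 3, its highest, the log2 fold change of Vegfd was 0.41 ± 0.16. Sema3c, a neuropilin-binding semaphorin, had 0.43 ± 0.25, and 0.26 without LPS library 4. Ptprb, the phosphatase that switches off TEK, had 98.7 ± 12.4 CPM in Ba+LPS and 134 ± 56.0 CPM in LPS (-0.44 ± 0.28, edgeR adjusted p = 0.580), and 0.42 without LPS 1, 2 and 3.

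Among 31 genes of VEGF receptor signalling, 13 fold changes were positive and 18 negative, with a median of -0.07, and 0 passed in edgeR. At an unadjusted p under 0.05 there were 2 higher and 1 lower, against 887 higher and 991 lower of the 16850 genes tested. Cdc42, a small GTPase of the cytoskeleton, had 162 ± 12.8 CPM in Ba+LPS and 118 ± 14.9 CPM in LPS without overlap (0.45 ± 0.11, edgeR adjusted p = 0.272, DESeq2 adjusted p = 0.0107). The adaptor gene Grb2 had 0.22 ± 0.09. Hspb1, a small heat-shock protein, had -1.18 ± 0.49, with 389 CPM in LPS library 4 and 62.2 to 94.8 CPM in the other 4 LPS libraries. Without LPS library 4 its log2 fold change was -0.30 ± 0.15, with an unadjusted edgeR p of 0.0695, so its place among the genes under 0.05 rests on that library.

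Genes that VEGF induces in endothelial cells were tested for 19 of 21 members, with 6 positive and 13 negative fold changes, a median of -0.18 and 0 calls in edgeR. Dll4, the Notch ligand of sprouting tip cells, had 4.25 ± 1.72 CPM in Ba+LPS and 8.90 ± 2.97 CPM in LPS (-1.06 ± 0.33, edgeR adjusted p = 0.303), and only LPS library 5 lay within the Ba+LPS range. Cited2 had -0.55 ± 0.20, with 41.3 to 56.5 CPM in LPS 1, 2 and 3. Its values in LPS 4 and 5, 32.22 and 33.25 CPM, lay within the Ba+LPS range of 23.4 to 42.6 CPM. Lcp1 (1.48 ± 0.56), the third gene at an unadjusted p under 0.05, is also a leukocyte actin-bundling gene. It had 15.2 to 19.4 CPM in LPS 1, 2 and 3. In LPS 4 and 5 it had 65.85 and 64.58 CPM, within the Ba+LPS range of 28.8 to 186 CPM. All 9 macrophage markers had positive fold changes, with summed CPM of 165.9 to 552.5 in Ba+LPS. In LPS the sum was 126.2 to 150.7 in libraries 1, 2 and 3, and 361.3 and 307.0 in libraries 4 and 5. The part of macrophages in Lcp1 was not tested. For Tie receptor control and FOXO1 targets, 9 of 18 fold changes were positive and 9 negative (median -0.04, 0 calls in edgeR). At an unadjusted p under 0.05, 4 were lower, against 991 lower of the 16850 genes tested. Gata2, an endothelial and blood transcription factor, had 13.4 ± 2.04 CPM in Ba+LPS and 20.3 ± 3.90 CPM in LPS (-0.59 ± 0.16, edgeR adjusted p = 0.299, DESeq2 adjusted p = 0.0427). The flow-responsive factors Klf2 and Klf4 had -0.56 ± 0.17 and -0.37 ± 0.15.

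Oxygen sensing and VEGF control was the list with the most one-sided signs of the 5, with 23 of 26 fold changes negative and a median of -0.28, and 0 passed in edgeR. Epas1, which encodes HIF-2 alpha, the hypoxia factor of endothelial cells, had 213, 226, 194, 265 and 223 CPM in Ba+LPS and 317, 309, 328, 290 and 298 CPM in LPS. The groups did not overlap, and LPS libraries 4 and 5, at 290 and 298 CPM, lay near the other 3 LPS libraries. The log2 fold change of Epas1 was -0.46 ± 0.11 (edgeR adjusted p = 0.248, DESeq2 adjusted p = 0.00232). Ddit4, a hypoxia- and stress-induced brake on mTOR, had 30.5 ± 6.40 CPM in Ba+LPS and 62.5 ± 16.7 CPM in LPS without overlap (-1.03 ± 0.20, edgeR adjusted p = 0.201, DESeq2 adjusted p = 0.00121). Ndrg1, the closest gene to Tie1, had -0.54 ± 0.15 (edgeR adjusted p = 0.299).

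**Figure D5:**
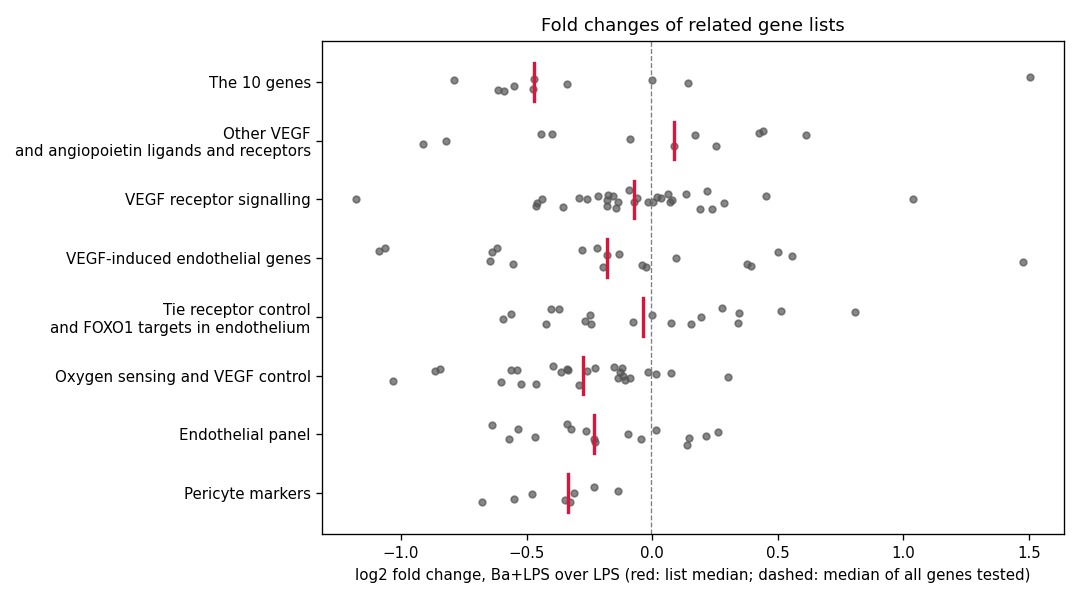
Log2 fold changes of Ba+LPS over LPS, in the fit to all 10 libraries, for the 10 genes, the 5 related gene lists, the endothelial panel and the pericyte markers. Each point is a gene, the red bar is the median of the list and the dashed line the median of all 16850 genes. Medians are -0.47 for the 10 genes, -0.28 for oxygen sensing and 0.09 for the other VEGF and angiopoietin genes, and no gene shown passed in edgeR.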

How the data were processed

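Per the labels, libraries were made with an ABclonal mRNA-seq kit from 1 µg of TRIzol-extracted cardiac RNA. Per the submitters' processing notes, the genome build was mm10; the aligner, the counter and whether strand was used are not stated there or in the labels. The deposited count table holds whole-number gene counts with no normalization by the authors. Among low counts (1 to 50), 61.6% to 64.7% per library were even, so a count is not 1 independent fragment. The FPKM values deposited by the authors equalled the count scaled by gene length and library total within a relative deviation of 5.4e-13, so they add no measurement and served only to compare levels between genes. All 10 count columns were mapped to a labelled library, and 0 were left over. No 2 libraries agreed within sampling noise (chi-square over its degrees of freedom at least 15.2).

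Symbols and coordinates came from GENCODE M21, which named 31076 of 31655 IDs. Counts were tested with edgeR 4.0.16 in R 4.3.3 (TMM, filter by group, robust quasi-likelihood F test, two-sided, Benjamini-Hochberg adjustment over the 16850 genes left, threshold 0.05). A standard error was taken from the F statistic. The biological coefficient of variation was 31.4%. A second fit used the mean log CPM of 16 endothelial genes as the library scale. The Angpt2 to Angpt1 ratio had an exact permutation test over libraries. The steps were tested on simulated counts. Alternatives were other scalings and filters, DESeq2 1.42.0, limma 3.58.1 with voom, with quality weights and on log2(FPKM + 1) and log2(FPKM + 0.1), a replicate block, and leaving out libraries singly, LPS 1 to 3 together or Ba+LPS 2 and 3 together. The last pair was chosen from earlier results for low Pdk4. Fits relative to the panel and the ratio without these sets of libraries, and non-overlap under other scalings, were added after seeing the data.

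The 10 genes, the lists and the tests were chosen with earlier results of these data known. Genes named beside the 10 are up to 3 of smallest unadjusted p from each of 5 pathway lists and, for each receptor kinase, the 3 genes of most similar profile. Robo4, Pecam1 and the genes of the opening check were named after their values were seen. Promoter sequences are from RefSeq on GRCm38.p6, in which 8 of the 10 genes matched.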

Additional observations from a re-analysis of the deposited data

Results flagged for a closer look

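Groups of 5 libraries were checked for a library whose gap to its nearest neighbour as a share of the group's range was above Dixon's 95% critical value, over 54 groups, those of the 10 genes, the 15 other genes named from the pathway lists and the Angpt2 to Angpt1 and Flt1 to Kdr ratios, and 6 groups were marked, where chance marks about 1 in 20. None of the 10 genes and neither ratio was among them. Vegfd had 7.05 CPM in Ba+LPS library 3, with the other 4 Ba+LPS libraries between 3.79 and 4.19 CPM. Cited2 had 42.6 CPM in Ba+LPS library 5, with the others between 23.4 and 26.9 CPM. In LPS library 4, Hspb1 had 389 CPM, with the other LPS libraries between 62.2 and 94.8 CPM. Klf2 had 54.2 CPM in the same library, with the others between 29.8 and 36.6 CPM, and Klf4 had 26.5 CPM there, with the others between 41.1 and 41.9 CPM. Dll4 had 3.77 CPM in LPS library 5, with the others between 9.18 and 11.1 CPM.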

How the results depend on the processing

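In edgeR 0 of all genes and 0 of the 10 passed an adjusted p of 0.05 whichever single library was left out, and 0 of the 10 relative to the endothelial panel. Without the filter on low counts 2 of all genes passed, DESeq2 called 267 with 2 of the 10, and limma-voom with sample quality weights called 2974 with 6 of the 10. At an unadjusted p under 0.05, leaving out 1 library gave 5 to 7 of the 10 and 1282 (without LPS library 3) to 3112 (without LPS library 4) of all genes, against 5 and 1878. Without LPS libraries 1, 2 and 3, 2 of the 10, Tie1 and Angpt1, were past it, as were 2165 of the 17965 genes in that fit. Library totals left 0 of the 10 without overlap. The Angpt2 to Angpt1 ratio difference was -2.47 to -1.54 without single libraries (exact p of at most 0.0317), and -2.06 with an exact p of 0.190 without LPS 1, 2 and 3, where 2 LPS libraries are left.

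Signs turned as follows, and the cause was not tested. Tek had 0.023 with upper-quartile factors, 0.12 with library totals, 0.0069 with a stricter filter, 0.0103 with limma-voom, 0.0847 and 0.0901 on log2(FPKM + 1) and log2(FPKM + 0.1), 0.31 without LPS 1, 2 and 3, and -0.14 to 0.10 without single libraries. Without LPS 1, 2 and 3, Vegfa had 0.26 and Ptprb 0.42, and relative to the endothelial panel Flt1 had 0.35, Kdr 0.0148, Flt4 0.0537, Vegfa 0.68 and Vegfb 0.35, where the median of all genes had moved to 0.48 and Tie1 kept its sign at -0.13. Without Ba+LPS 2 and 3, Nrp1 had -0.14 and Tek relative to the panel -0.11. Tek relative to the panel had -0.0912 to 0.23 without single libraries. Replicate numbers 1, 2, 3 and 5 occur in both groups, and the labels do not say what the numbers mean. Same-numbered libraries deviated together with correlations of only -0.0955, 0.0751, -0.0284 and 0.0481. These show no pairing, but so few pairs cannot exclude one, and the main test treated the libraries as unpaired. With a replicate block on these 8 libraries 0 genes and 0 of the 10 passed.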
